A study of Mus musculus with 3 samples.

Results

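RP1 is a cluster of macrophages from injured mouse muscle, as named in the annotation of cells deposited by the authors, and all cells carrying that name were taken. It held 624 of the 4374 cells of the series, of which 574 came from wounds given a matrix scaffold made from decellularised urinary bladder (UBM), 37 from wounds given polycaprolactone (PCL, a synthetic polyester) and 13 from wounds given saline. All 3 groups had a piece of the quadriceps removed by surgery (volumetric muscle loss), and macrophages were sorted 1 week later and sequenced in 1 droplet library per treatment. The sources used here give neither the strain, age and sex of the mice nor how many were pooled in a library, nor the meaning of the letters in the cluster names.

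Cells that run short of oxygen stop degrading the hypoxia-inducible factors, transcription factors that then switch on genes for glucose uptake, glycolysis, mitochondrial turnover and blood vessel growth. A separate pathway, led by the transcription factor ATF4, answers a shortage of amino acids or stress on protein synthesis. In macrophages of healing tissue, arginase 1 (Arg1) converts arginine to ornithine, and serum amyloid A3 (Saa3) is an acute-phase protein made outside the liver. The 9 genes taken as markers of RP1 belong to these programs. Adm, Ero1l, Bnip3, Egln3 and Ndrg1 are known targets of hypoxia, Trib3 is a target of ATF4, Mt2 encodes a metallothionein that binds zinc and copper, and Saa3 and Arg1 complete the list. Oxygen itself was not measured, so the word hypoxic stands here for transcripts alone.

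The sequence before the start of 6 of these genes is shown, because their levels set RP1 apart and the short motifs of the regulators of these programs can be looked for in them. The bases are RefSeq's on GRCm38.p6, 250 before each start, given 5′ to 3′ on the strand of the gene. RefSeq's starts differ from those of the gene spans given further on, so that the windows of Ero1l, Saa3 and Bnip3 lie partly inside those spans. In the first 4, capitals mark the core of the hypoxia response element, ACGTG or GCGTG on either strand. Bnip3 spans chr7:138909507-138909756 (minus strand), Ero1l, listed by RefSeq as Ero1a, spans chr14:45318573-45318822 (minus strand), Egln3 spans chr12:54203875-54204124 (minus strand) and Adm spans chr7:110627407-110627656 (plus strand).
Bnip3: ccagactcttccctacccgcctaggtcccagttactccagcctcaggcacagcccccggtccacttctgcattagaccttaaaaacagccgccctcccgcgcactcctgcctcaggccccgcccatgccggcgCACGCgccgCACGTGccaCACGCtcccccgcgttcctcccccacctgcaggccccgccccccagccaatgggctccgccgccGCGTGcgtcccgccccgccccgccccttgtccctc
Ero1l: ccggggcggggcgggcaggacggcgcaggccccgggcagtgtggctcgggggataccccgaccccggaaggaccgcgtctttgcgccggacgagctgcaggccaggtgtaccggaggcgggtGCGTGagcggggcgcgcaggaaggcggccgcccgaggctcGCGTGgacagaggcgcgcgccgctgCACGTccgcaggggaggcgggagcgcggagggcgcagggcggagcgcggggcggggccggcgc
Egln3: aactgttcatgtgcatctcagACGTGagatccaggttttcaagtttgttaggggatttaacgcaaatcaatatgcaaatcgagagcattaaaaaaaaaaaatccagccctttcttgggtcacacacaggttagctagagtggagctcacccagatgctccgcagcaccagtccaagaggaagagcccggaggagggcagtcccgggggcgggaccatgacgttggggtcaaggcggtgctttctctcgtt
Adm: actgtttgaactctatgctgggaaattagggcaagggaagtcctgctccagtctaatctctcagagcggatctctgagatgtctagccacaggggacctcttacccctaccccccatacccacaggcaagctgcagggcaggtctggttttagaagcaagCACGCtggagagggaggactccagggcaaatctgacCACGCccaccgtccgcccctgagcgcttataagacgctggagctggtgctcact
In Saa3, at chr7:46715677-46715926 (minus strand), capitals mark TTNNGNAA, a loose form of the site of the C/EBP factors. In Mt2, at chr8:94172368-94172617 (plus strand), capitals mark TGCNCNC, a loose core of the metal response element, on either strand.
Saa3: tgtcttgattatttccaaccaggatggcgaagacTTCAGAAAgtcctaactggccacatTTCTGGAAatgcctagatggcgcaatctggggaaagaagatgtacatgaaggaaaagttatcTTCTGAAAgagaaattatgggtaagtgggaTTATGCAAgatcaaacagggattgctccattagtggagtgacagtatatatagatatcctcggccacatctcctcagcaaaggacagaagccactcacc
Mt2: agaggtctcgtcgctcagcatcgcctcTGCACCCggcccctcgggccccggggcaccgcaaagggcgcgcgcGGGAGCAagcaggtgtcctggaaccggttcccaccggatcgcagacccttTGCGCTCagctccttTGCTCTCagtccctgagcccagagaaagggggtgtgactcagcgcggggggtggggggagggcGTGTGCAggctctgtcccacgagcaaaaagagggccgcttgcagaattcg

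Promoters were found for 7 of the 9 markers (all but Arg1 and Ndrg1), and 6 of these 7 held ACGTG or GCGTG on either strand, against 38.6% of 32851 mouse promoters of the same length. Bnip3 held 2 matches to ACGTG, on opposite strands of a single CACGTG, and 3 to GCGTG. Ero1l held 1 and 2, Egln3 held 1 and 0, Adm held 0 and 2, and Trib3 and Mt2 held GCGTG 1 time each. ACGTG was in 16.6%, GCGTG in 28.2% and CACGTG in 6.02% of all promoters. Saa3 held 4 matches to TTNNGNAA, which was in 36.8% of promoters, and no hypoxia core. Mt2 held 5 matches to TGCNCNC, which was in 44.4%. The amino-acid response letters TGATGNAA, in 3.45% of promoters, were in none of the 7. These matches describe the letters of short windows, and binding was not measured.

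RP1 made up 25.2% of the cells of the UBM library (574 of 2280, exact Clopper-Pearson 95% interval 23.4 to 27.0%), 2.11% of the PCL library (37 of 1753, 1.49 to 2.90%) and 3.81% of the saline library (13 of 341, 2.05 to 6.43%). All intervals here cover counting error only, and with 1 library per treatment the treatment and the library cannot be told apart and nothing was tested. The RP1 cells of UBM had a median of 4249.5 unique molecular identifiers (UMIs, counted RNA molecules) and 1467.5 genes per cell, against 6124.5 UMIs and 1886 genes in the other UBM cells. RP1 cells of PCL had medians of 4612 UMIs and 1588 genes, and those of saline 1625 UMIs and 595 genes. Between libraries 6 cell barcodes were shared, and 2 RP1 cells were among them. These cells were kept.

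The 13 saline cells stood apart from the rest of RP1. Genes of the mitochondrial genome gave a median of 42.7% of their UMIs, with a range of 4.13 to 66.6%, and 11 of the 13 lay over 10%. The other saline cells had a median of 3.12%. In all, these 13 cells held 30602 UMIs, and 8 of the 9 RP1 markers had no UMI among them, which allows up to 98.0 counts per 1000000 UMIs (CPM) from a floor of 3 counts. The remaining marker, Mt2, had 6 UMIs, at 196 CPM (72.0 to 427). Macrophage markers were present, with all 9 of 9 detected and a summed level of 15555 CPM, and 6 of 8 muscle fibre markers were detected at a summed 948 CPM from 29 UMIs. Muscle fibre markers summed to 6.74 CPM in RP1 cells of UBM. Without cells over 10% mitochondrial UMIs, RP1 made up 25.3% of UBM cells (566 of 2233), 1.90% of PCL cells (33 of 1735) and 0.629% of saline cells (2 of 318). The part of the mitochondrial content in the saline share was not tested beyond this, and the saline RP1 cells enter no comparison below.

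In UBM the order was the other way round. RP1 cells had the lowest median mitochondrial share of the UBM clusters, 1.07% of UMIs, against 2.21% in RP2, the next lowest, and 4.15% in RP3, the highest. Single cells departed from this, with 8 of 574 RP1 cells over 10% and 1 at 88.7%. The share from ribosomal protein genes was the highest, with a median of 25.04% in RP1 and from 13.8% to 21.1% in the clusters RP2, RP3, FP1, R1, R2 and R3. In PCL the RP1 cells had a median mitochondrial share of 3.73%, against 3.47% in the other PCL cells, and a ribosomal share of 16.7%, against 11.97%. The low mitochondrial share of RP1 in UBM was thus not seen in RP1 of PCL, where 4 of 37 cells lay over 10%.

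**Figure D1:**
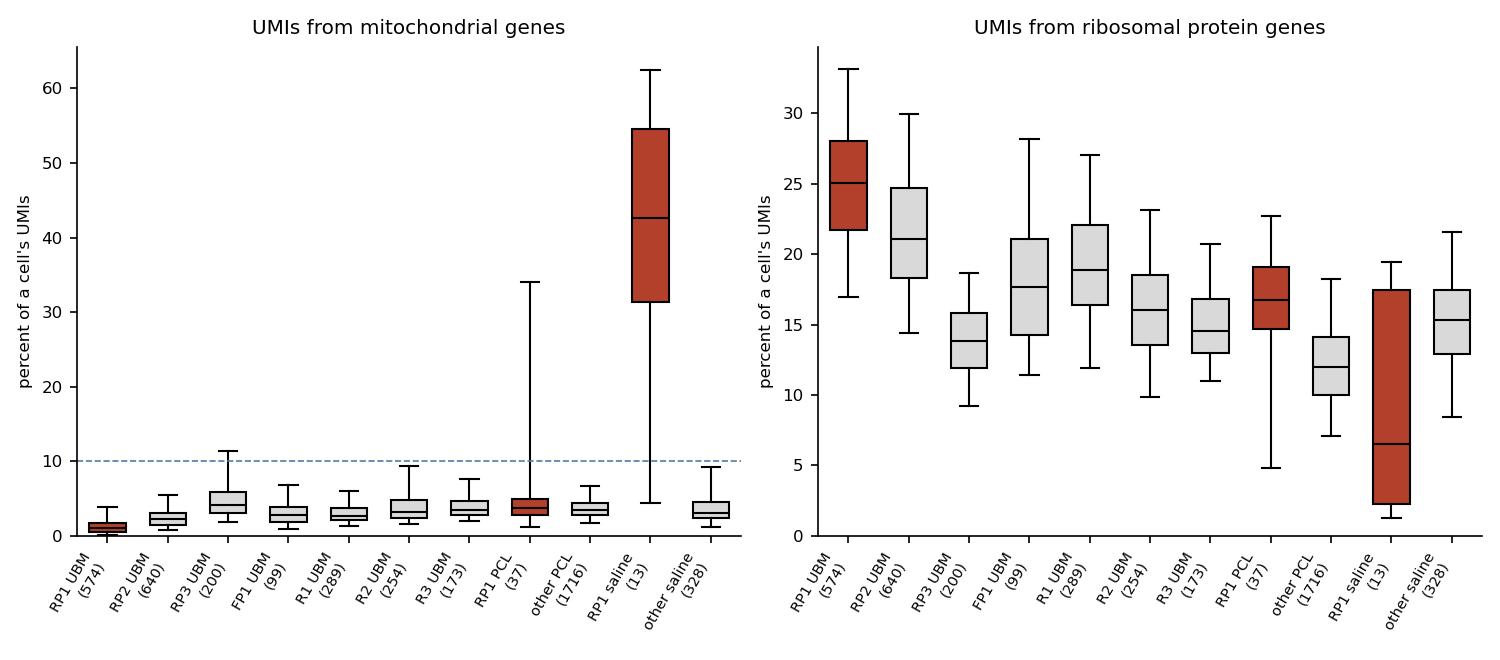
Percent of each cell's UMIs from mitochondrial genes (left) and ribosomal protein genes (right), by cluster in UBM and for RP1 and all other cells of PCL and saline, with cell numbers in parentheses. Boxes span the quartiles with the median as a line, whiskers the 5th to 95th percentile of cells, RP1 is red and the dashed line marks 10%; the RP1 median is 1.07% in UBM, 3.73% in PCL and 42.7% in saline.

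Each of the 9 markers was higher in RP1 cells than in the pooled other UBM cells, and higher in RP1 than in each of the other UBM clusters with at least 20 cells. The clusters were formed by the authors from these same genes, so this and the contrasts that follow describe the cluster and do not test it. UMIs were summed over the cells of a group and expressed as CPM, with exact 95% intervals. Among the hypoxia genes, Adm, which encodes the vessel-widening peptide adrenomedullin, stood at 117 CPM in RP1 and 7.30 CPM in the other UBM cells, a ratio of 16.0 (12.6 to 20.5). Its next highest cluster, RP2, had 13.4 CPM. Ero1l, an oxidase that forms disulphide bonds in the endoplasmic reticulum, stood at 707 and 85.6 CPM (8.26-fold, 7.65 to 8.92). Bnip3, a receptor for the removal of mitochondria, stood at 845 CPM in RP1 and 220 CPM in the others (3.85-fold, 3.63 to 4.07).

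Egln3, a prolyl hydroxylase that marks hypoxia-inducible factors for degradation and is itself induced by them, stood at 185 CPM in RP1 and 43.1 CPM in the others (4.28-fold, 3.78 to 4.86). Ndrg1, a stress-induced gene, stood at 261 and 68.2 CPM (3.83-fold, 3.45 to 4.24). For Bnip3, Egln3 and Ndrg1 the second cluster was again RP2, at 344, 80.1 and 122 CPM, and for Egln3 the interval of RP2 (71.5 to 89.6) overlapped that of FP1 (51.1 to 88.8). Trib3, a pseudokinase that restrains ATF4 signalling, had 73.3 CPM in RP1 and 3.95 CPM in the others (18.6-fold, 13.5 to 26.1). Mt2 had 2641 and 844 CPM (3.13-fold, 3.04 to 3.23). Arg1 had 6315 and 2224 CPM (2.84-fold, 2.79 to 2.90), and its second cluster was R2 at 3882 CPM. Saa3 had 2521 and 172 CPM (14.7-fold, 13.9 to 15.4), with FP1 second at 693 CPM.

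The markers lie at separate places in the genome. On GRCm38 (GENCODE vM21), Saa3 spans bases 46711998 to 46715700 of chromosome 7, Bnip3 138890836 to 138909519 and Adm 110627661 to 110629820 of the same chromosome, Arg1 24915221 to 24927484 of chromosome 10, and Ero1l 45283087 to 45318771 of chromosome 14. Egln3 spans 54178981 to 54203860 of chromosome 12, Trib3 152337422 to 152344032 of chromosome 2, Mt2 94172664 to 94173568 of chromosome 8 and Ndrg1 66929318 to 66969640 of chromosome 15.

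**Figure D2:**
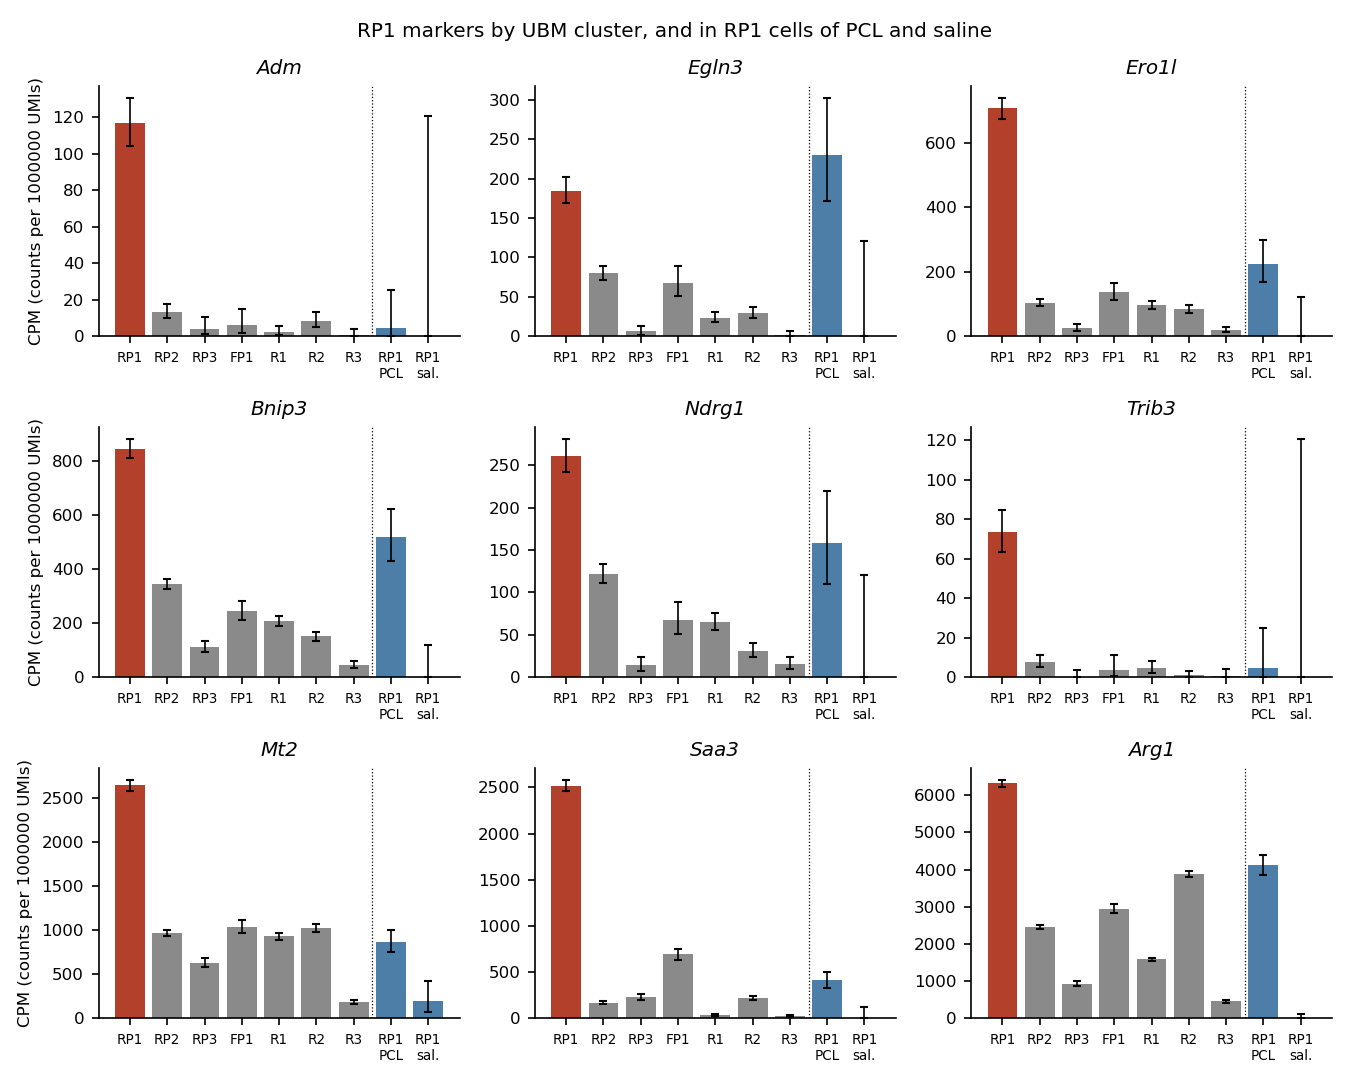
Level of each of the 9 RP1 markers in CPM (counts per 1000000 UMIs) in the UBM clusters (red for RP1, grey for the others) and, right of the dotted line, in RP1 cells of PCL and saline (blue). Bars are sums over cells and error bars exact Poisson 95% intervals for counting error; every marker is highest in RP1 among the UBM clusters shown, Adm and Trib3 have 1 UMI each in RP1 of PCL, and only Mt2 has UMIs in RP1 of saline.

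Among single RP1 cells the markers were spread in different ways. Arg1 was seen in 562 of the 574 UBM cells, Mt2 in 551, Bnip3 in 531 and Ero1l in 478. Ndrg1 was seen in 315, Egln3 in 295, Adm in 159 and Trib3 in 141. Saa3 was seen in 227 cells, and the 58 cells with the most Saa3 held 78.5% of its UMIs. The 58 richest cells for each other gene held 30.8% of Arg1, 34.95% of Mt2, 34.6% of Ero1l, 25.4% of Bnip3, 39.7% of Egln3, 40.9% of Ndrg1, 57.7% of Trib3 and 62.8% of Adm. Per 10000 UMIs of a cell, Saa3 had a lowest quartile and a median of 0 and a highest value of 757, while Arg1 had quartiles of 33.1, 56.1 and 86.3 and a highest value of 254. The single richest cell held 384 Saa3 UMIs, 5.70% of all in RP1. Hmox1 (haem oxygenase), with 64.7% of UMIs in its 58 richest cells, and the neutrophil-attracting chemokine Cxcl3, with 71.9%, were uneven as well.

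Cells were then thinned to 2500 UMIs each, which left 500 RP1 cells and 1618 other cells of UBM and left out 74 and 88 shallower ones. Saa3 was seen in 32.2% of thinned RP1 cells (28.1 to 36.5%) and in 8.16% of the other UBM cells. Adm was seen in 21.4% of RP1 cells and 1.55% of the others, Trib3 in 15.8% and 1.11%, and Ero1l in 67.6% and 17.8%. Bnip3 was seen in 82.4% and 37.8%, Egln3 in 36.2% and 10.5%, Ndrg1 in 41.0% and 15.5%, Mt2 in 91.6% and 60.3%, and Arg1 in 97.8% and 72.3%. No cluster of the library was known to lack these genes, so the background from free RNA could be bounded only by the cluster with the lowest share. For Saa3, Bnip3, Ero1l and Arg1 this was R3, with 5.29%, 10.0%, 6.47% and 43.5% of thinned cells and a median of 7421 UMIs before thinning, against 4249.5 in RP1. Before thinning, Saa3 was seen in 39.5% of RP1 cells and 13.1% of the other UBM cells, and Adm in 27.7% and 3.81%.

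Counted together, a thinned RP1 cell of UBM showed a median of 5 of the 9 markers, and 301 of 500 cells showed at least 5. RP1 cells of PCL showed a median of 4 (27 cells), RP2 cells of UBM 3, and all other UBM cells 2, with 107 of 1618 at 5 or more. The ranges met, since 17 RP1 cells had at most 2 markers and 2 had all 9. RP1 cells with a Saa3 UMI showed Arg1 in 97.5% and Bnip3 in 83.2% of cells, and those without showed them in 97.9% and 82.0%. Adm was seen in 29.2% of RP1 cells with Saa3 and in 17.7% of those without.

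**Figure D3:**
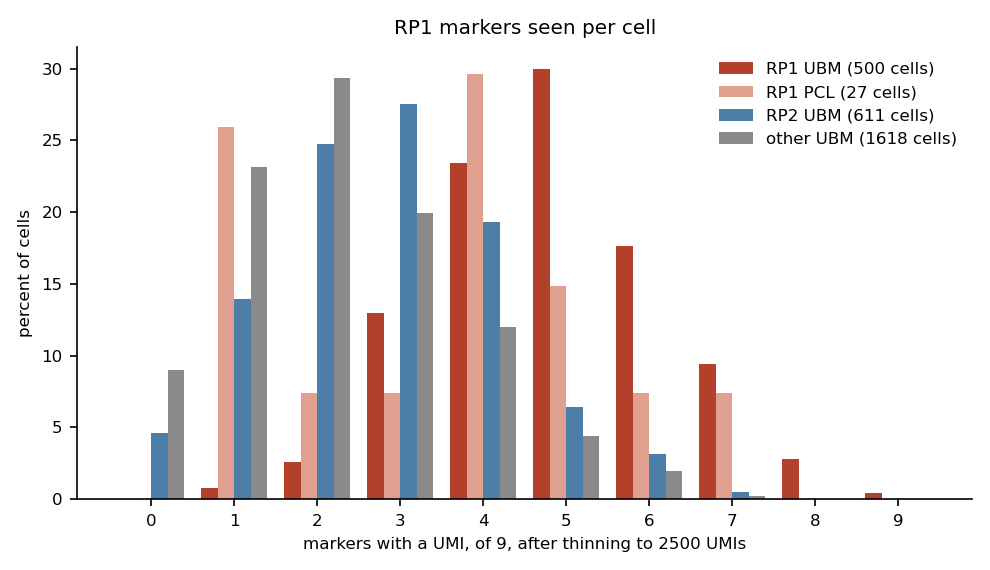
Number of the 9 RP1 markers seen in a cell after thinning to 2500 UMIs (horizontal axis) and the percent of cells with that number (vertical axis), for RP1 of UBM, RP1 of PCL, RP2 of UBM and all other UBM cells. The median is 5 markers in RP1 of UBM, 4 in RP1 of PCL, 3 in RP2 and 2 in the other UBM cells.

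Over all genes, of 2567 genes that reached 50 CPM in the group where they were higher, 74 were at least 2-fold higher in RP1 than in the other UBM cells after 10 CPM was added to both (2.88%), and 118 were at least 2-fold lower (4.6%). Beyond the markers, the highest log2 ratios by this rule, whose order can differ from that of the folds with nothing added, included those of Atf5, a transcription factor of the ATF4 pathway, with 177 CPM in RP1 and 23.3 CPM in the others (7.60-fold, 6.54 to 8.84), and Cxcl3, with 269 and 48.5 CPM (5.55-fold). Among single UBM clusters Cxcl3 was higher in FP1 than in RP1, at 299 CPM. Cox6a2, the muscle form of a subunit of cytochrome oxidase, had 93.9 and 14.5 CPM (6.47-fold). Cd274, which encodes the checkpoint ligand PD-L1, had 154 and 35.3 CPM (4.37-fold, 3.81 to 5.02). Rgcc, a cell-cycle regulator induced by complement, had 501 and 124 CPM (4.04-fold), and the noncoding RNA Snhg12 had 81.6 and 18.05 CPM (4.52-fold). When CPM were taken over the total without mitochondrial and ribosomal protein genes, the share of which differs between the groups, 112 genes were at least 2-fold higher and 121 lower.

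The 10 lowest log2 ratios were those of genes for antigen presentation and of Retnla, Ccl24, Clec4b1, Ear2 and Rnase2a. Retnla, a secreted marker of alternative activation, stood at 528 CPM in RP1 and 8680 CPM in the other UBM cells, a ratio of 0.0609 (0.0577 to 0.0642). Cd74, the invariant chain of MHC class II, stood at 548 and 5633 CPM (0.0973), H2-Eb1 at 89.1 and 1290 CPM (0.0690), H2-Aa at 139 and 1693 CPM (0.0822), H2-Ab1 at 150 and 1710 CPM (0.0875) and H2-DMb1 at 23.2 and 194 CPM (0.119). In UBM these MHC class II genes were low in RP2 as well, with Cd74 at 1132 CPM and H2-Aa at 248 CPM there. The eosinophil-attracting chemokine Ccl24 stood at 137 and 1451 CPM (0.0946), and the lectin Clec4b1 at 2.62 and 72.7 CPM (0.0360). Ear2 and Rnase2a, ribonucleases of a family of near-identical copies whose reads may be split between them, stood at 5.61 and 179 CPM and at 26.2 and 342 CPM. RP2 was low for these as well, with Ccl24 at 81.4 CPM, Rnase2a at 21.1 CPM and Ear2 at 9.53 CPM. Clec4b1 had 31.9 CPM in RP2 but 2.31 CPM in R2.

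**Figure D4:**
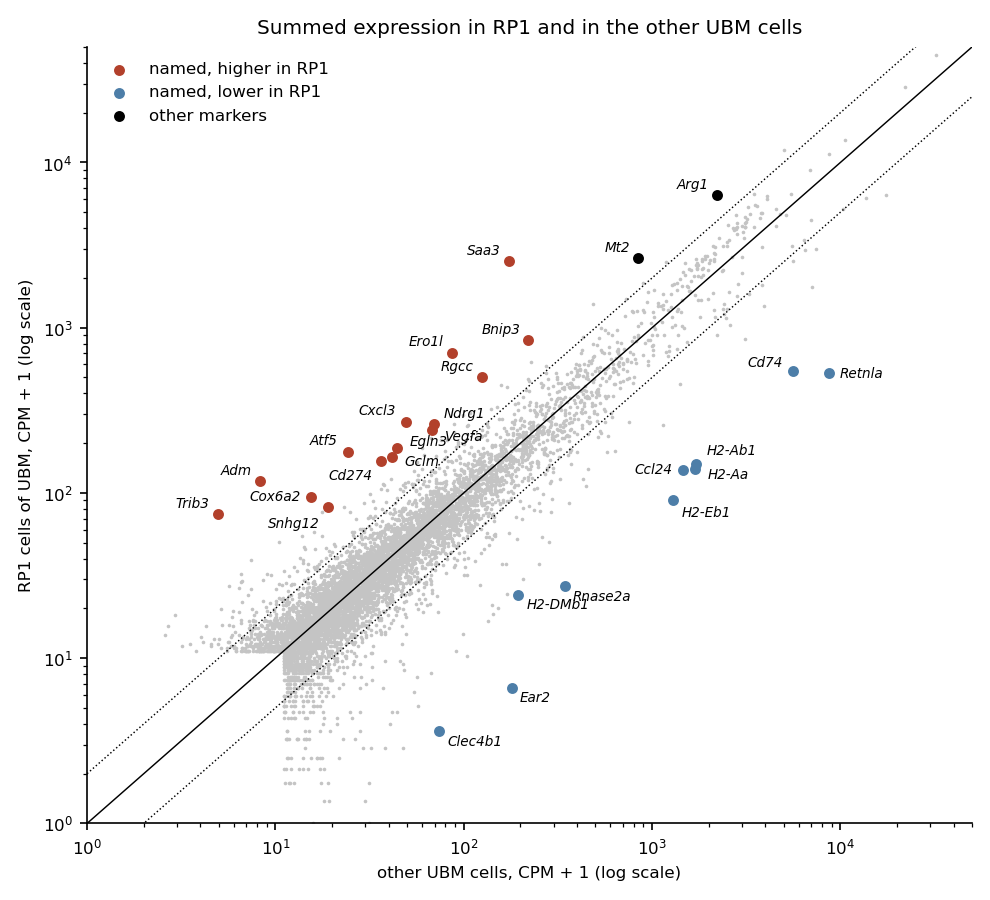
Summed level of each gene in RP1 cells of UBM (vertical) against the other UBM cells (horizontal), in CPM + 1 on log scales, for genes with at least 10 CPM in either group. The solid line is equality and the dotted lines are 2-fold; red points are the 15 genes with the highest and blue points the 10 with the lowest log2 ratio, with Saa3 at 2521 against 172 CPM and Retnla at 528 against 8680 CPM.

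Lists of genes for programs that fit macrophages and wounds were then read member by member. A member was measured where it had at least 10 CPM in either group, and was called higher or lower at 1.5-fold with nothing added to the CPM. Over all 7045 genes measured, 10.4% were higher and 15.8% lower by that rule, and the median log2 ratio (with 10 CPM added, as for all log2 ratios here) was -0.04. Of 21 hypoxia genes other than glycolysis, 20 were higher and none lower, with a median log2 ratio of 1.07. This list includes the markers Adm, Ero1l, Bnip3, Egln3 and Ndrg1. Its counts here and below are thus in part those of the markers and give them no separate support. The exception was Cxcr4, a chemokine receptor, at 76.0 and 65.1 CPM. Vegfa, the main growth factor of vessels, had 238 CPM in RP1 and 66.9 CPM in the others (3.56-fold, 3.21 to 3.96), and Hilpda, which stores lipid in droplets under hypoxia, had 616 and 227 CPM (2.71-fold). RP1 had the highest level of the 7 UBM clusters of at least 50 cells for 20 of 22 genes in this list, against 15.5% of 8215 genes overall.

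Of 15 genes of glycolysis and glucose uptake, 13 were higher and none lower (median 0.77). The glucose transporter Slc2a1 had 186 CPM in RP1 and 58.7 CPM in the others (3.17-fold), and most enzymes lay close together, from Pgk1 at 1.95-fold and Aldoa at 1.73-fold to Ldha at 1.52-fold and Gapdh at 1.49-fold. The partner genes of oxidative metabolism lay on the other side. All 13 protein-coding genes of the mitochondrial genome had ratios under 1, and 11 were lower by the rule (median -0.80), as mt-Atp6 at 2945 and 6472 CPM. Of 24 nuclear genes of the respiratory chain none was higher and 9 were lower (median -0.36), among them Cox5a at 230 and 534 CPM and Sdhb at 92.0 and 178 CPM. Only 1 of these 24 was lower than in RP2 (median -0.15), where 10.5% of all genes were lower. The mitochondrial genes had 7 of 13 lower than in RP2 (median -0.53). In PCL, 2 of 24 nuclear genes were lower in RP1 than in the other cells (median -0.11), against 21% of all genes. Without cells over 10% mitochondrial UMIs the mitochondrial median was -1.10.

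The amino-acid and ATF4 list, which includes the marker Trib3, had 14 of 18 members higher and 1 lower (median 0.86). Asns, the asparagine synthetase, had 31.4 CPM in RP1 and 5.54 CPM in the others (5.67-fold, 4.06 to 7.96), the serine-synthesis enzyme Phgdh had 18.7 and 4.11 CPM (4.55-fold), the folate enzyme Mthfd2 96.9 and 30.6 CPM (3.16-fold), Sesn2 25.4 and 5.37 CPM (4.74-fold) and Ddit3, which encodes CHOP, 88.3 and 32.1 CPM (2.75-fold). Atf4 itself had 127 and 65.6 CPM (1.94-fold). Psat1, the next enzyme of serine synthesis, was the lower member, at 6.36 and 14.7 CPM. The unfolded-protein list, chaperones and folding enzymes of the endoplasmic reticulum, had no member higher and 9 of 14 lower (median -1.02), with Hspa5, the main chaperone, at 216 and 514 CPM and Calr at 177 and 575 CPM. Against RP2 the same list had 2 of 14 higher and 4 lower (median -0.25), with Hspa5 at 216 and 277 CPM. Ddit3 and Trib3 are also known outputs of endoplasmic reticulum stress, and whether they and the chaperones varied together in single cells was not tested.

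Genes of the antioxidant response included 7 of 14 higher and none lower (median 0.53). Both subunits of the enzyme that starts glutathione synthesis were higher, Gclm at 164 and 40.8 CPM (4.01-fold) and Gclc at 46.4 and 13.3 CPM (3.50-fold), as was Hmox1 at 1382 and 485 CPM (2.85-fold). Nfe2l2, which encodes the factor NRF2 that drives this response, had 116 and 147 CPM. Beside Mt2, Mt1 had 4798 and 2807 CPM (1.71-fold). Of 11 genes of arginine and polyamine metabolism, Arg1 and the arginine transporter Slc7a1 (25.1 and 9.07 CPM, 2.77-fold) were higher and Srm was lower. Odc1, the enzyme that uses the ornithine made by arginase, had 112 and 116 CPM, and Slc7a2, the other arginine transporter measured, 142 and 143 CPM.

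The alternative activation list, a mixed set of genes used as markers of that state, had 2 of 16 members higher, Arg1 and Il4ra (269 and 179 CPM, 1.51-fold), and 11 lower (median -0.91). It includes Cd163 and Folr2, which are also read below as genes of resident macrophages, so it is not a list of interleukin-4 responses alone. This side depended on the cluster compared, with 8 of 15 higher and 3 lower against RP2 (median 0.49) and 7 of 17 higher and 7 lower against R1 (median 0.04). Mrc1, the mannose receptor, had 1292 and 1140 CPM, and Chil3 471 and 486 CPM. So Arg1 and Retnla, often used together as markers of this state, lay on opposite sides. Of 22 inflammatory cytokines and chemokines, 3 were higher (Cxcl3, Ptgs2 at 47.9 and 24.3 CPM, and Ccl4 at 430 and 278 CPM) and 12 lower, as Il1b at 26.6 and 121 CPM and Tnf at 4.12 and 16.2 CPM. Other UBM clusters came near or above RP1, with Cxcl3 at 299 CPM in FP1, Ptgs2 at 41.7 CPM in R1 and Ccl4 at 379 CPM in RP2. This balance also depended on the cluster compared, with 5 of 21 higher and 3 lower against RP2 (median -0.23). All 8 measured genes of MHC class II and costimulation were lower (median -2.98), and of 18 interferon-response genes none was higher and 11 were lower (median -0.51). The differences from RP2 were smaller, with 6 of 8 MHC class II and costimulation genes lower (median -0.67). Of 16 interferon-response genes 5 were lower than in RP2 (median -0.26). Of 7 acute-phase and antimicrobial genes Saa3 alone was higher and 3 were lower. These were Wfdc17, Lyz2 (1774 and 7101 CPM) and Lyz1, near-identical to Lyz2 so that reads may be split between them.

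Of the genes for secreted matrix and its turnover, 3 of 19 were higher and 9 lower (median -0.35). The higher ones were Vcan, which encodes versican, at 26.2 and 4.70 CPM (5.57-fold), Thbs1, thrombospondin, at 448 and 156 CPM (2.87-fold), and Mmp9 at 69.2 and 40.5 CPM. Among single UBM clusters Mmp9 was higher in FP1 than in RP1, at 247 CPM. Tgfbi stood at 76.0 and 291 CPM, Tgfb1 at 184 and 211 CPM and Fn1 at 908 and 1162 CPM. Among growth factors for vessels and muscle, Adm, Vegfa and Gdf15 (81.2 and 22.2 CPM, 3.66-fold) were higher and 3 of 13 were lower, while Igf1, a growth factor for muscle, had 606 and 696 CPM. Of 16 measured cell-cycle genes none was higher and 13 were lower (median -1.07, or -2.11 with 1 CPM added in place of 10), as Top2a with 2 UMIs in RP1, at 0.748 CPM, and 30.3 CPM in the others. Mcm5, at 0 in RP1 and 14.8 CPM in the others, was counted among the lower.

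**Figure D5:**
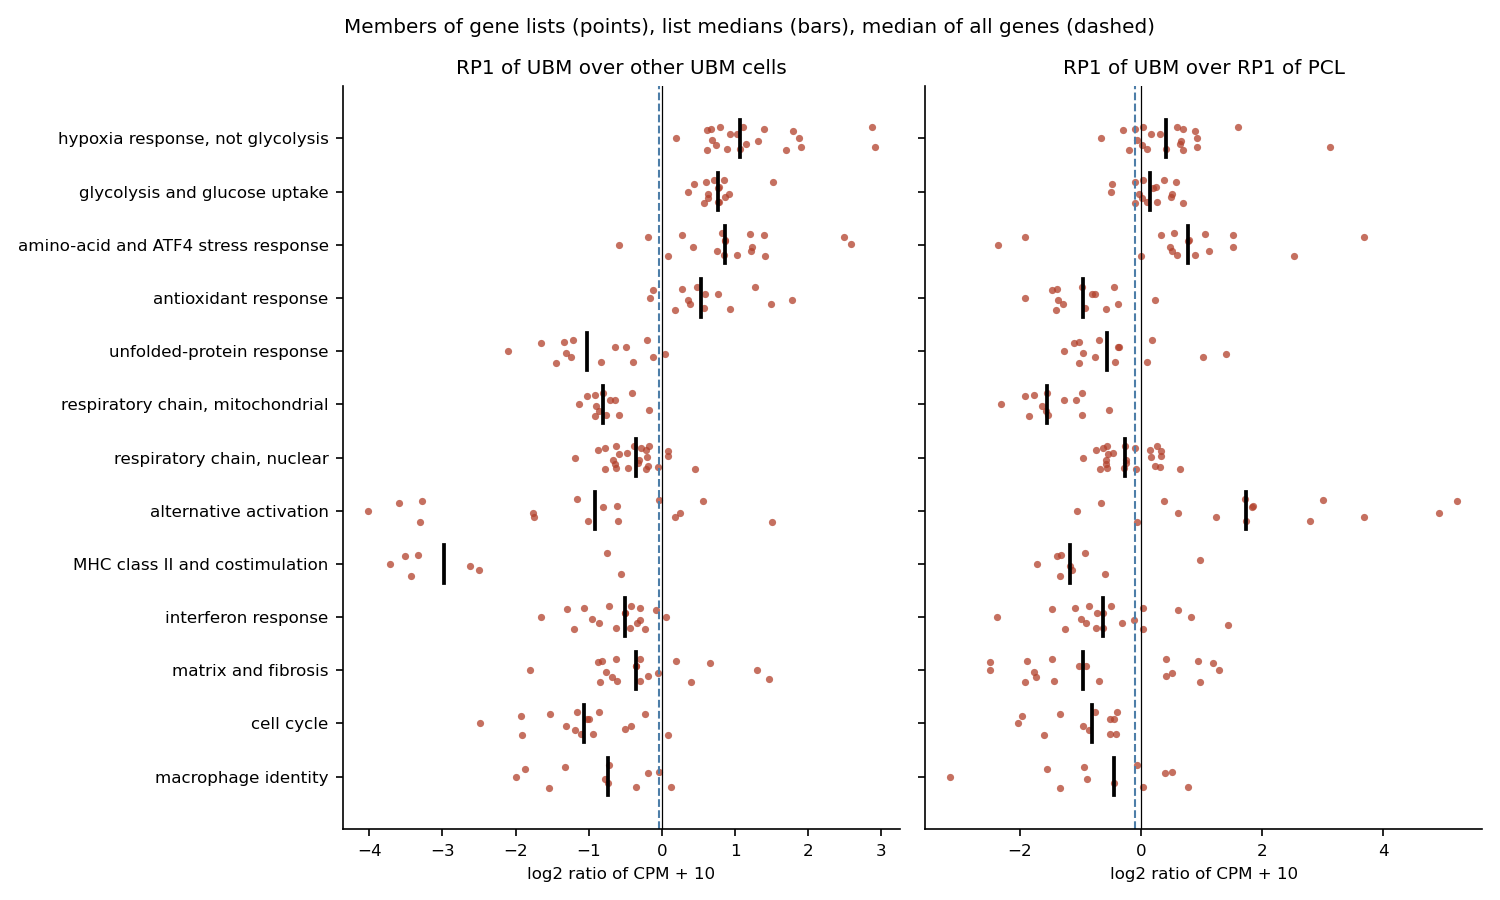
Log2 ratio of CPM + 10 for each measured member (points) of 13 gene lists, in RP1 of UBM over the other UBM cells (left) and over RP1 of PCL (right). Thick bars are list medians and the dashed line the median of all genes, -0.04 on the left and -0.10 on the right; the hypoxia median is 1.07 on the left and 0.42 on the right, and the alternative activation median is -0.91 on the left and 1.73 on the right.

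Macrophage markers were present at a lower summed level. All 9 fixed macrophage markers were detected, with a summed level of 6276 CPM in RP1 and 18539 CPM in the other UBM cells. Adgre1, which encodes F4/80, stood at 419 and 432 CPM and Cd14 at 524 and 478 CPM, while C1qa stood at 848 and 3122 CPM and Cd68 at 459 and 792 CPM. Of the monocyte markers, Ly6c2 had no UMI in RP1, against 4.87 CPM in the others, and Ccr2 had 13.1 and 97.8 CPM. Natural killer markers were at 0 for 4 of 4 in RP1, against a sum of 41.2 CPM in the others. Neutrophil markers summed to 70.0 and 65.5 CPM, with 4 of 7 at 0 in RP1, and fibroblast markers to 27.7 and 30.8 CPM. Platelet markers summed to 120 and 40.3 CPM. Nearly all of this was Ppbp, since Itga2b had 1 UMI in RP1. Whether any of these moved a result was not tested.

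The cluster most like RP1 in UBM was RP2, a group of 640 cells, with a Spearman correlation of 0.910 over 3250 genes of 1 library. R1, with 289 cells, came next at 0.803. Against RP2, 63 of 2500 genes were at least 2-fold higher in RP1 (2.52%) and 64 lower (2.56%). Saa3 stood at 2521 CPM in RP1 and 169 CPM in RP2 (14.9-fold, 13.8 to 16.2), and Chchd10, a mitochondrial protein, at 215 and 16.5 CPM (13.02-fold). Chil3 stood at 471 and 66.7 CPM (7.06-fold), and the gap-junction gene Gja1 at 173 and 29.6 CPM (5.83-fold). R2 held more than RP1 of Chchd10 (259 CPM), Chil3 (1762 CPM) and Gja1 (468 CPM). By the 1.5-fold rule, which 10.3% of 6933 genes met upwards and 10.5% downwards, 16 of 21 hypoxia genes were higher, 14 of 18 ATF4 genes were higher and 1 lower, but 5 of 15 glycolysis genes were higher. Hypoxia and glycolysis medians were 0.79 and 0.46. RP2 held more of the lipase Lpl (455 CPM in RP1 and 1894 CPM in RP2), Folr2 (180 and 777 CPM), Clec12a (35.9 and 260 CPM), Cd72 (35.9 and 252 CPM) and the cycle genes Stmn1 (15.7 and 155 CPM) and Ccnd1 (3.74 and 67.0 CPM). Ckb and Zranb3 complete the 8 lowest, at ratios of 0.118 and 0.111.

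Against R1, 179 of 2630 genes were at least 2-fold higher in RP1 (6.81%) and 193 lower (7.34%). Saa3 stood at 2521 CPM in RP1 and 35.5 CPM in R1 (71.0-fold, 57.4 to 88.9), and the chemokine Ccl8 at 6056 and 468 CPM (12.9-fold). The endothelin receptor Ednrb stood at 304 and 20.6 CPM (14.7-fold), Tmem8 at 209 and 11.1 CPM (18.7-fold), Gja1 at 173 and 12.4 CPM, and Ppbp at 120 and 3.71 CPM. Other clusters held more Ccl8 (44733 CPM in R2, 37982 CPM in RP3), Gja1 (468 CPM in R2) and Ppbp (132 CPM in FP1). Ednrb came near RP1 in R2 (292 CPM) and RP3 (295 CPM). Of the 8 genes with the lowest log2 ratios, 4 were of MHC class II, among them Cd74 at 548 and 13000 CPM and H2-Eb1 at 89.1 and 3286 CPM. The others were Ear2, Clec4b1, Retnla and Gzma. Gzma, a killer-cell protease, had no UMI in RP1 and 147 CPM in R1, a ratio of at most 0.00762 from a floor of 3 counts over the RP1 cells. Its UMIs lay in 6 of the 289 R1 cells, with 36.1% in 1 cell. By the 1.5-fold rule (18.6% of 7113 genes higher, 20% lower), 18 of 21 hypoxia genes but only 2 of 15 glycolysis genes were higher in RP1 (median 0.29 for glycolysis). By the same rule 9 of 12 resident macrophage genes were higher in RP1, as the scavenger receptor Cd163 at 177 and 17.7 CPM (9.97-fold) and Maf at 609 and 132 CPM (4.61-fold). Set against all other UBM cells, Cd163 had 177 and 366 CPM, so its side depended on the cluster compared.

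The RP1 cells of PCL shared the cluster name and part of its program. Against the other PCL cells, 7 of the 9 markers had a ratio whose interval lay above 1. Egln3 had 230 CPM in RP1 and 37.6 CPM in the other PCL cells (6.12-fold, 4.48 to 8.21), Saa3 410 and 97.2 CPM (4.22-fold), Mt2 870 and 209 CPM (4.17-fold), Arg1 4113 and 1040 CPM (3.95-fold), Ndrg1 158 and 52.4 CPM (3.01-fold), Bnip3 519 and 173 CPM (2.99-fold) and Ero1l 226 and 82.9 CPM (2.72-fold). Adm and Trib3 had 1 UMI each in 37 cells, with intervals of the ratio that include 1. Of the other genes named as high in RP1 of UBM, Vegfa (1.26-fold, 0.868 to 1.77), Cxcl3, Cd274, Snhg12, Cox6a2 and Atf5 also had such intervals. Gclm (2.35-fold, 1.79 to 3.02) and Rgcc (1.32-fold, 1.04 to 1.66) had intervals above 1. By the 1.5-fold rule, met upwards by 15.7% and downwards by 21% of 7357 genes, the hypoxia list had 15 of 20 members higher than in the other PCL cells (median 0.84). The ATF4 list had 1 of 12 higher and 1 lower (median -0.06). MHC class II lay low in both libraries, with Cd74 at 830 CPM in RP1 and 8035 CPM in the other PCL cells.

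Set directly against each other, RP1 cells of UBM had 129 of 2770 genes at least 2-fold higher than RP1 cells of PCL (4.66%) and 235 lower (8.48%). This balance depended on scaling. Trimmed mean of M values gave 238 higher and 134 lower and moved the median of all genes by 0.18, and without the cell richest in each gene the counts were 200 and 150. Saa3 was 6.14-fold higher in RP1 of UBM (2521 and 410 CPM), Ero1l 3.13-fold, Mt2 3.03-fold, Ndrg1 1.65-fold, Bnip3 1.63-fold and Arg1 1.54-fold (6315 and 4113 CPM), while Egln3 had 185 and 230 CPM (0.804, 0.602 to 1.09). Adm and Atf5 each had 1 UMI in RP1 of PCL, against 117 and 177 CPM in RP1 of UBM. Retnla, low in RP1 among UBM cells, had 528 CPM there and 4.51 CPM (1 UMI) in RP1 of PCL. Ccl8 had 6056 and 189 CPM, Cd163 177 and 4.51 CPM and Chil3 471 and 49.6 CPM. Chchd10 had 215 and 9.02 CPM and Hbegf 125 and 4.51 CPM. These differences were not particular to RP1. Retnla had 8680 CPM in the other UBM cells and 20.7 CPM in the other PCL cells. In UBM all of Retnla, Ccl8, Cd163, Chil3, Chchd10 and Hbegf were higher in R2 than in RP1, as Ccl8 at 44733 CPM.

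By the 1.5-fold rule, met upwards by 18.5% and downwards by 28.9% of 7231 genes, 11 of 15 alternative activation genes were higher in RP1 of UBM than in RP1 of PCL and 2 lower (median 1.73, or 1.32 with the 2 members at 0 in PCL at their bound). The ATF4 list had 9 of 17 higher and 2 lower (median 0.78, or 0.59 at the bounds), and the hypoxia list 10 of 21 higher and 1 lower (median 0.42). Glycolysis had 2 of 16 higher and 2 lower (median 0.16). Lower in RP1 of UBM were 13 of 13 mitochondrial genes (median -1.55), 11 of 14 antioxidant genes (median -0.95), 8 of 9 MHC class II and costimulation genes, with 1 higher, and 11 of 18 matrix genes, with 4 higher, as Spp1, osteopontin, at 1479 and 5498 CPM. The medians of all these lists were larger in size than the shift of 0.18 but for that of glycolysis. The lists were not compared between the other cells of UBM and PCL, so these differences need not be particular to RP1.

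The genes lowest in RP1 of UBM against RP1 of PCL were in part those of few cells. Clec4n, a fungal lectin receptor, had 13.1 CPM in RP1 of UBM and 699 CPM in RP1 of PCL, Acp5 23.6 and 226 CPM, Lyz2 1774 and 15740.4 CPM and Lyz1 5.24 and 108 CPM. S100a9 (2.25 and 239 CPM), S100a8 (10.1 and 320 CPM) and Il1b (26.6 and 356 CPM) are genes of neutrophils or inflammatory monocytes. In RP1 of PCL neutrophil markers summed to 591 CPM with 2 of 7 at 0, against 70.0 CPM in RP1 of UBM, and a single cell held 66.0% of S100a9, 47.9% of S100a8 and 49.4% of Il1b. All 16 UMIs of 2810417H13Rik in RP1 of PCL lay in 1 cell. The part of these cells in the other differences was tested only by leaving out the richest cell for each gene, as given above.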

How the data were processed

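Macrophages from injured mouse quadriceps were profiled by 10x 3' single-cell RNA sequencing, with 1 library for each of UBM, PCL and saline (2280, 1753 and 341 cells, and 14586276, 11006118 and 1888343 UMIs). The authors deposited 1 table of raw UMI counts for 13242 genes and 4374 cells and an annotation with a library and 1 of 9 clusters for each cell. The submitters' processing notes name Cell Ranger and Seurat 2 and list the build hg38, while the gene symbols in the table are those of mouse, so positions were taken from the GRCm38 annotation and the build of the counts is uncertain. The sources used here give no filter on cells, and no further filter on cells was applied.

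From the counts, UMIs were summed over the cells of a group and divided by the group's total. CPM have exact Poisson intervals, ratios exact conditional binomial intervals and shares Clopper-Pearson intervals, all at 95% and for counting error only, since UMIs of pooled cells from 1 library hold no replicate error. With 1 library per condition no p-value was computed. Log2 ratios had 10 CPM added, and the 2-fold rule took genes that reached 50 CPM in either group. The 13 mitochondrial and 97 ribosomal protein genes were not eligible to be named. Genes named were the 15 highest and 10 lowest log2 ratios against the other UBM cells, the 8 highest and 8 lowest in each other comparison of UBM cells, the 9 markers and members of the lists. The members, markers and lists were chosen with earlier results of these data known. Cells were thinned without replacement to 2500 UMIs. Scrublet (scanpy 1.11.5) called 0 of 2280 UBM cells, 0.570% of PCL and 2.35% of saline cells as doublets, which is too few in UBM to count as a working call, and no cell was removed. The summing and ratios were tested on simulated counts. Python 3.11.15, numpy 2.4.6, pandas 2.3.3, scipy 1.17.1, R 4.3.3 and, for trimmed mean of M values, edgeR 4.0.16 were used. Alternatives changed the scaling, the pseudocount, the minimum CPM, the cells kept and the weight of cells and clusters. Some results are not reported here.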

Additional observations from a re-analysis of the deposited data

How the results depend on the processing

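Under the alternatives run, all 9 marker ratios against the other UBM cells stayed above 1, and of the list medians in that comparison only those of the arginine and handling-stress lists, close to 0 as reported, took either sign. The balance of higher and lower genes did turn between RP1 of UBM and RP1 of PCL. By small margins it also turned against R1 (179 and 193 as reported, 186 and 183 by trimmed mean of M values). Against RP2 it went from 63 and 64 as reported to 66 and 63 by trimmed mean of M values. Over the total without mitochondrial and ribosomal protein genes, 112 genes were at least 2-fold higher in RP1 than in the other UBM cells, and 48.1% of called genes were higher, against 38.5% as reported. With no minimum CPM, 182 genes were lower. Between RP1 of UBM and RP1 of PCL, the counts of higher and lower genes were 238 and 134 by trimmed mean of M values, 241 and 132 by median of ratios, 369 and 449 with no minimum, and 200 and 150 without the cell with the most UMIs of each gene, and 208 were higher over the total without mitochondrial and ribosomal protein genes. The share of called genes that were higher was 35.4% as reported, 64.0% by trimmed mean of M values, 64.6% by median of ratios and 57.1% without the richest cell. RP1 was 27.3% of UBM cells without the clusters F2 and R3, and 0.629% of saline cells without cells over 10% mitochondrial UMIs, below the 1.90% of PCL cells, whereas with all cells the saline share was the higher of the pair. The other 54 counts and shares kept within the limits set for them. Against the other UBM cells, the hypoxia median ranged from 0.95 to 1.21, the ATF4 median from 0.84 to 0.97 the cell-cycle median from -2.11 (pseudocount of 1 CPM) to -0.91 and the log2 ratio of Saa3 from 3.41 to 3.91. No paired analysis was possible because each condition has 1 library. Leaving out doublets was run only for the RP1 shares of PCL and saline, because none was called in UBM. Leaving out the 5% of cells with the most UMIs, chosen after seeing the data, was run for the comparisons and the shares. The causes of these moves were not tested.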

Other observations

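Transcription factors and chemoattractant receptors were read in RP1 of UBM against the other UBM cells by the same 1.5-fold rule. Epas1, which encodes the hypoxia-inducible factor HIF-2α, had 31.4 CPM in RP1 and 8.06 CPM in the other cells (3.90-fold, 2.88 to 5.28), while Hif1a had 134 and 120 CPM, with an interval of the ratio (0.992 to 1.26) that includes 1. Also higher were Bhlhe41 (26.9 and 9.40 CPM), Klf4 (529 and 271 CPM), Cebpb (449 and 263 CPM) and Mitf (64.0 and 41.7 CPM). Single clusters came near RP1 for these, with Bhlhe41 at 22.4 and Mitf at 59.3 CPM in RP2, and Klf4 at 441 and Cebpb at 421 CPM in RP3. Lower were Nr1h3, the liver X receptor alpha (5.99 and 21.9 CPM), Pparg (8.61 and 21.5 CPM), Cebpa (55.0 and 93.5 CPM) and Spi1 (222 and 349 CPM). Of 8 measured receptors Ackr3, a scavenger of CXCL12, was higher at 17.2 and 1.93 CPM (8.92-fold, 5.29 to 15.4), and Ccr2 and Cmklr1 were lower.

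Genes linked to resident macrophages divided. Pf4 (11924 and 5005 CPM) and F13a1 (529 and 307 CPM) were higher, and 9 of 14 measured were lower, among them Lyve1 (4.12 and 56.0 CPM), Folr2 (180 and 632 CPM) and Cd209f (1.497 and 20.7 CPM). RP2 had 9117 CPM of Pf4, and RP3 had more F13a1 than RP1, at 944 CPM. Among genes of lipid handling, Abca1, which exports cholesterol, was higher at 355 and 224 CPM, with RP3 near it at 331 CPM. Lpl (455 and 1413 CPM) and Cd9 (85.3 and 361 CPM) were lower, and Trem2 had 811 and 917 CPM.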
